A study of Rattus norvegicus with 44 samples.

Results

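The genes described here are Tfeb itself and 7 genes of the compartments it serves, 8 of the 18347 gene identifiers in the deposited table. They are Lamp1 and Lamp2 of the lysosomal membrane, the proteases Ctsb and Ctss of the lysosomal lumen, and the autophagy genes Sqstm1, Map1lc3b and Becn1. Tfeb was chosen by its measured level, because the normalized read counts differed between the 2 senolytic treatments, so its values in those groups are a description and carry no test, and the other 7 were set beside it as genes of the same pathway. Each gene was found by its symbol, the rows of a gene identifier were summed, and all 8 passed the filter of a mean of at least 5 that left 15598 genes.

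RNA was sequenced from the dentate gyrus (DG), the part of the hippocampus that holds the granule cells, of 44 male rats with 1 library per rat. The groups were young rats given vehicle (YNG, n = 10) and older rats given vehicle (AV, n = 12), ABT-263 (AA, n = 11) or dasatinib plus quercetin, D+Q (ADQ, n = 11). ABT-263, also called navitoclax, blocks anti-apoptotic BCL-2 proteins, dasatinib is a tyrosine kinase inhibitor and quercetin a plant flavonoid, and all are used as senolytics, agents meant to remove senescent cells. The labels give the age as 6 months for YNG and 12 months for all older rats, and the methods of the study place the latter age at the start of repeated oral treatment, so the older rats were older than that when tissue was taken. The strain is F344, given by the methods for all rats and by the label of 1 rat. The tissue came from 1 hemisphere of each rat.

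Lysosomes are the acidic compartments in which cells break down proteins, lipids and worn organelles, and autophagy delivers cytoplasmic cargo to them inside double-membrane vesicles. TFEB is a transcription factor that is held in the cytoplasm when the kinase complex mTORC1 is active at the lysosome surface and that enters the nucleus when nutrients are scarce or lysosomes are stressed, where it switches on genes of lysosomes and autophagy. In the brain, neurons depend on this route to clear aggregates, while microglia, the phagocytes of the tissue, carry abundant lysosomes and cathepsins.

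TFEB binds the letters CACGTG, an E-box that is the core of the longer motif found before many lysosomal genes. The 250 bases before the transcription start were read from RefSeq (build GRCr8), which held 6 of the 8 genes. Of these 6, 1 gene, Lamp1, had CACGTG, which reads the same on both strands, and it had 5 copies, the farthest starting 183 and the nearest 38 bases before the start. In 4 of the 5 the letters ran on to the 8-base form GTCACGTG on either strand. Among 33469 promoters of this length, 5.59% had CACGTG, 0.0508% had 3 or more copies and 1.63% had GTCACGTG, which contains the shorter motif. Such a match describes letters and is no bound site. The stretches of Lamp1, of Tfeb and of Lamp2 and Ctss, the genes that rose in AV, are shown with the copies of CACGTG in capitals, each 5′ to 3′ on the strand of its gene. Lamp1 lies at chr16:83075064-83075313 on the minus strand, Tfeb at chr9:20703125-20703374 (minus), Lamp2 at chrX:122087674-122087923 (minus) and Ctss at chr2:185775146-185775395 (plus).
Lamp1: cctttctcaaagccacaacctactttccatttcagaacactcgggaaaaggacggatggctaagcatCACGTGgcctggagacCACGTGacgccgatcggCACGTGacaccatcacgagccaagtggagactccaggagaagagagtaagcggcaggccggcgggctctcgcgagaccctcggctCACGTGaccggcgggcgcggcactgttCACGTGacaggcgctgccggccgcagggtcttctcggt
Tfeb: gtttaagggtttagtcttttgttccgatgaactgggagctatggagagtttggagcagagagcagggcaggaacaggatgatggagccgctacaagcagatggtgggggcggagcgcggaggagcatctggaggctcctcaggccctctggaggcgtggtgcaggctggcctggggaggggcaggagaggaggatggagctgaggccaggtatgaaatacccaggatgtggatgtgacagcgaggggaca
Lamp2: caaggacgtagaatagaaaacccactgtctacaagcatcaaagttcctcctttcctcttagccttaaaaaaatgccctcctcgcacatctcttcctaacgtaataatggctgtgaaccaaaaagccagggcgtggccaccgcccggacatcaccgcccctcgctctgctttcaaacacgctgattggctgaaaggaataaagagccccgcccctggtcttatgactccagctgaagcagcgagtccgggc
Ctss: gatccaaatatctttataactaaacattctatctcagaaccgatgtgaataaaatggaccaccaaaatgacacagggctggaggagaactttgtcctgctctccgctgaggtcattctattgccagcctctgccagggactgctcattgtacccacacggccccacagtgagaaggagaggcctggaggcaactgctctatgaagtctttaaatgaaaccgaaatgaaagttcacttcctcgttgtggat

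Values are normalized read counts, the authors' reads per gene divided by a size factor per library. The estimated depth was between 10165460 and 24323844 reads per rat, and Tfeb rested on 102 to 408 of them. Tests compare log2(value + 1) in limma, a gene was called at the unadjusted p of 0.05 that the study used, and the Benjamini-Hochberg adjusted p over all genes tested stands beside it. Fold changes on this scale understate the change of low genes. Of 6 granule cell markers, 5 (Prox1, Dsp, Calb1, C1ql2 and Pdyn) were present in every rat and Tdo2 was at 0 in 28 rats. Rats fall in 2 number series by name (a, n = 22, and b, n = 22), which the labels do not call batches, and both series hold rats of all 4 groups. Within series b, however, the AV rats are numbered 4566 to 4572 and all AA and ADQ rats 4031 to 4110. Differences of AA or ADQ from AV within series b therefore cannot be told apart from that gap in numbers. The same holds for how those differences vary between the series.

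The libraries of 3 rats stood apart in makeup. Summed granule cell markers were 3308 in rat 4107 (AA), 6540 in rat 3996 (AA) and 7714 in rat 3989 (AV), against 9124 or more in every other rat. Summed oligodendrocyte markers were 150631, 146881 and 174723 in the same 3 rats, and rat 4571 (AV) was also high at 167427. Summed markers of CA1 pyramidal cells, the neurons of the neighboring field, were 40233, 17421 and 26719 in the 3, where the AA median was 9895 and the AV median 7208. In bulk tissue, fewer cells of a type and less RNA per cell cannot be told apart. Results that rest on these rats are given with and without them.

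**Figure D1:**
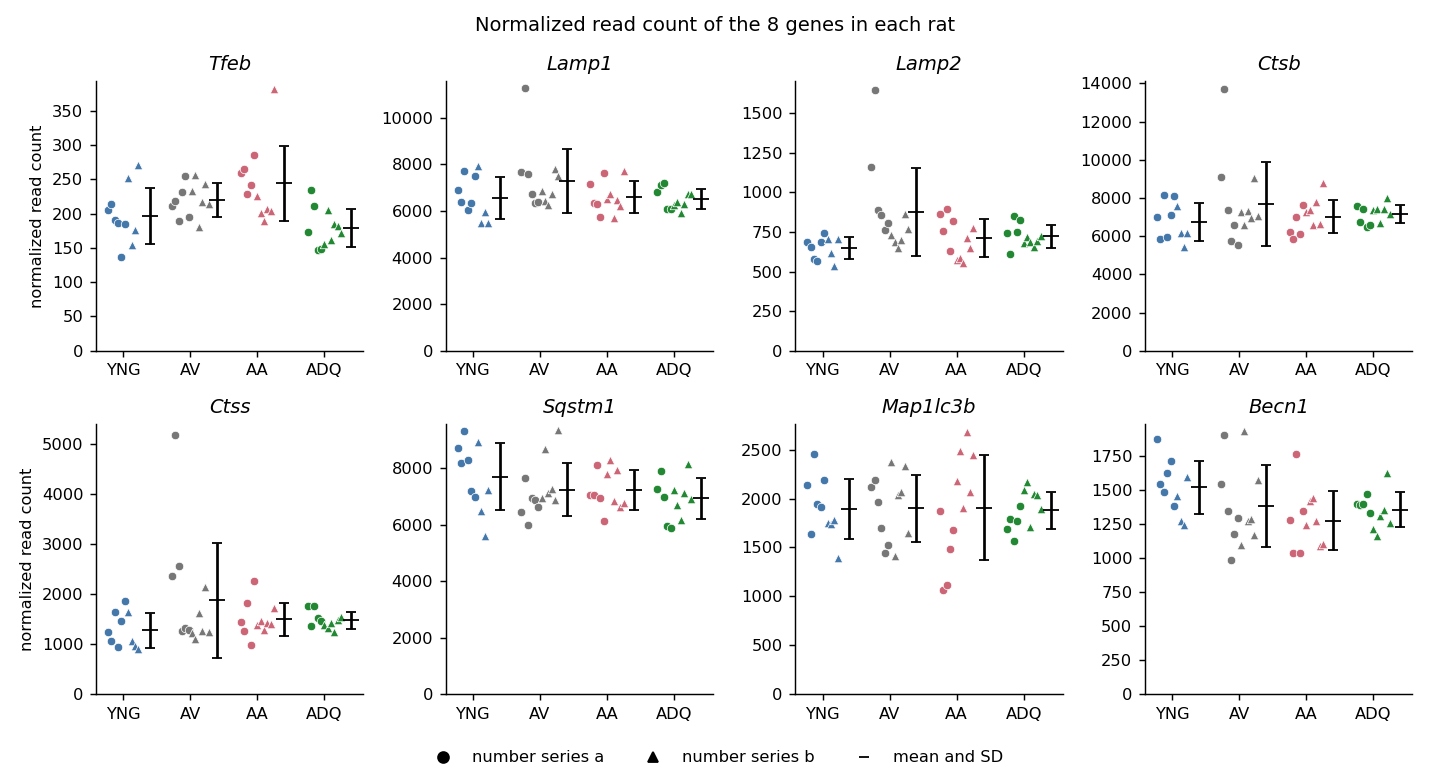
Normalized read count (y axis, linear from 0) of each of the 8 genes in each rat by group, with circles for number series a, triangles for series b, and a bar for the mean and SD. In AV, 1 rat (3989) is the highest for Lamp1 (11290), Lamp2 (1647), Ctsb (13707) and Ctss (5183), and in AA 1 rat (4107) is the highest for Tfeb (381).

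Tfeb was highest in AA and lowest in ADQ, with YNG and AV between them. The mean normalized read count of YNG rats was 197 ± 41.1 (SD, n = 10), that of AV rats 220 ± 24.4 (n = 12), that of AA rats 244 ± 54.4 (n = 11) and that of ADQ rats 180 ± 27.8 (n = 11). The lowest, median and highest YNG rats were at 136, 188 and 270, those of AV at 180, 218 and 256, those of AA at 189, 229 and 381 and those of ADQ at 147, 173 and 235. The ranges of all 4 groups overlapped, and in the order ADQ, YNG, AV and AA each mean lay within 1 SD of its neighbor. Between AA and ADQ, 11 of 11 AA rats were above the ADQ median, 5 AA rats were above every ADQ rat and 8 ADQ rats were below every AA rat.

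The log2 difference of Tfeb between AA and ADQ, the contrast for which it was picked, was 0.43 (SE 0.11), a fold of 1.35. Series a alone gave 0.50 and series b alone 0.37. Leaving out any 1 rat gave 0.36 to 0.47, the lowest without rat 4107. Leaving out the 3 rats low in granule cell markers gave 0.33, and adding granule cell and oligodendrocyte markers to the fit gave 0.32. The difference was 0.31 for AA and -0.12 for ADQ against YNG, and 0.13 for AA and -0.30 for ADQ against AV, all given with no test. Without the 3 rats, AA against AV came to 0.03, so that difference rested on them. The contrast of AV with YNG was not used to pick the gene, and there Tfeb differed by 0.18 (SE 0.11, p = 0.098, adjusted p = 0.321), within the spread between rats, with a 95% interval of -0.03 to 0.40. With every library scaled to an equal total it was called (0.28, p = 0.00767), but this scaling raised the median of all genes by 0.10 in this contrast, and relative to that median the value was 0.18.

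Lamp2, a membrane glycoprotein of which a splice form is the receptor of chaperone-mediated autophagy, was the member with the smallest p in AV against YNG. YNG rats had a normalized read count of 648 ± 69.6 (SD, n = 10), AV rats 877 ± 277 (n = 12), AA rats 709 ± 120 (n = 11) and ADQ rats 721 ± 70.6 (n = 11). The lowest, median and highest YNG rats were at 536, 670 and 741, those of AV at 650, 788 and 1647, those of AA at 553, 709 and 892 and those of ADQ at 611, 719 and 853. In AV, 8 of 12 rats were above every YNG rat, while the other 4 overlapped with YNG. Lamp2 rose in AV against YNG by a log2 difference of 0.39 (SE 0.11, p = 0.000604, adjusted p = 0.0351), a fold of 1.31, and was the 1 member to pass after adjustment, as 2.35% of all genes did.

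The difference in Lamp2 was uneven over the rats. Series a alone gave 0.60 (p = 0.000568) and series b alone 0.20 (p = 0.0739), a difference between the series of -0.40 (interaction p = 0.0412, adjusted p = 0.208). Leaving out any 1 rat gave 0.31 to 0.43 and kept the call. Without the 3 rats low in granule cell markers it was 0.31 (p = 0.00112), and with granule cell and oligodendrocyte markers in the fit 0.23 (p = 0.0226). The adjusted p, 0.0351, was 0.00305 to 0.832 over the alternatives, and was above 0.05 without the 3 rats, with the 2 groups alone, with granule cell and oligodendrocyte markers and within series b. Lamp2 was lower in both treated groups than in AV, with a log2 difference of -0.28 in AA (SE 0.10, p = 0.0113, adjusted p = 0.999) and of -0.24 in ADQ (SE 0.10, p = 0.0271, adjusted p = 0.475), neither of which passed after adjustment. In AA, 5 of 11 rats were below every AV rat, and in ADQ 1 of 11 was. The ADQ difference was not called when rat 3890, 3989 (both AV) or 4004 (ADQ) was left out, and came to -0.15 (p = 0.0855) without the 3 rats. It was -0.14 (p = 0.203) with granule cell and microglial markers in the fit, -0.10 (p = 0.254) with granule cell and oligodendrocyte markers and -0.08 (p = 0.41) within series b, and an equal total per rat (p = 0.0674) and array weights (-0.15, p = 0.0708) lost the call as well. The AA difference kept its call in these fits (-0.27 and -0.23 with the 2 sets of markers) and missed it within series a (-0.32, p = 0.0516).

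Lamp1, the other major glycoprotein that lines the lysosomal membrane, had the motif copies shown above and was called in no contrast. The mean normalized read count of YNG rats was 6578 ± 903 (SD, n = 10), that of AV rats 7302 ± 1375 (n = 12), that of AA rats 6595 ± 676 (n = 11) and that of ADQ rats 6516 ± 433 (n = 11). The AV mean was raised by rat 3989 at 11290, the next AV rat being at 7798, inside the YNG range of 5464 to 7944. Against YNG, AV differed by 0.14 (p = 0.0737, adjusted p = 0.281, 95% interval -0.01 to 0.30), AA by 0.01 and ADQ by -0.00. Without rat 3989 the AV difference was 0.08.

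Ctss, cathepsin S, a cysteine protease that microglia and macrophages use to process antigens, was the other member that rose in AV. YNG rats had a normalized read count of 1274 ± 350.0 (SD, n = 10), AV rats 1881 ± 1154 (n = 12), AA rats 1494 ± 337 (n = 11) and ADQ rats 1475 ± 167 (n = 11). The lowest, median and highest YNG rats were at 899, 1150.3 and 1859, those of AV at 1092, 1300.3 and 5183, those of AA at 977, 1426 and 2258 and those of ADQ at 1239.9, 1468 and 1766. In AV, 4 rats were above every YNG rat and 11 of 12 were above the YNG median. The 4 were at 2137 or more and the other 8 at 1620.1 or less. The log2 difference of AV from YNG was 0.44 (SE 0.18, p = 0.015, adjusted p = 0.144). Series a alone gave 0.61 (p = 0.0354) and series b alone 0.33 (p = 0.0535), and the value was 0.30 without rat 3989 (p = 0.0439). Fitted on the 2 groups alone the same difference had p = 0.0521. With granule cell and oligodendrocyte markers in the fit it was 0.11 (p = 0.48) and no longer called. The treated groups lay between YNG and AV in their means, but their medians of 1426 and 1468 were above the AV median of 1300.3. Of the treated rats, 8 of 11 in AA and 10 of 11 in ADQ were above the AV median. Neither group differed from AV beyond the spread (AA by -0.20, 95% interval -0.54 to 0.15, and ADQ by -0.19, 95% interval -0.54 to 0.15).

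Ctsb, cathepsin B, a cysteine protease found in lysosomes of most cells, was called in no contrast. The mean normalized read count of YNG rats was 6739 ± 972 (SD, n = 10), that of AV rats 7685 ± 2183 (n = 12), that of AA rats 7019 ± 863 (n = 11) and that of ADQ rats 7168 ± 472 (n = 11). Again rat 3989 stood at the top with 13707, the second AV rat being at 9111. The difference of AV from YNG was 0.16 (p = 0.111, adjusted p = 0.338, 95% interval -0.04 to 0.36), and 0.08 without rat 3989.

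Becn1 encodes Beclin 1, a subunit of the lipid kinase complex that starts the autophagosome, and it was the 1 of 7 members tested that was called in AA against YNG. YNG rats had a normalized read count of 1520 ± 196 (SD, n = 10), AV rats 1383 ± 302 (n = 12), AA rats 1276 ± 217 (n = 11) and ADQ rats 1356 ± 127 (n = 11). AA fell against YNG with a log2 difference of -0.26 (SE 0.10, p = 0.0111, adjusted p = 0.0904), and 5 of 11 AA rats were below every YNG rat while 1 was above the YNG median. Series a alone gave -0.33 (p = 0.0294) and series b alone -0.14 (p = 0.302). ADQ differed from YNG by -0.16 (p = 0.112) and AV by -0.15 (p = 0.114), which did not pass. Without the 3 rats low in granule cell markers, AV was called (-0.20, p = 0.0387) and AA kept its call (-0.25, p = 0.0151). AV was called in 2 of 15 alternative fits, that one and array weights, and also when rat 3989 or 4567 alone was left out. ADQ was called in 3 of 15, with the 2 groups alone (p = 0.0402), the top row (p = 0.0482) and array weights. With libraries scaled to an equal total, AA against YNG was -0.11 (p = 0.215), or -0.26 relative to the median of all genes, which that scaling raised by 0.15 in this contrast. The gene is split over 6 rows of the table, the first with 57.8% and the next with 29.4% of its value, and it overlaps Cntd1 in the annotation, so reads of the pair could be divided by the counting. Tfeb and Lamp1 each overlap 1 noncoding gene there.

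Sqstm1, which encodes the cargo receptor p62, had a normalized read count of 7709 ± 1189 in YNG rats (SD, n = 10), 7240 ± 941 in AV rats (n = 12), 7236 ± 693 in AA rats (n = 11) and 6938 ± 735 in ADQ rats (n = 11). No contrast was called over all rats, and the difference nearest to the threshold was that of ADQ from YNG at -0.14 (p = 0.0804, adjusted p = 0.234, 95% interval -0.30 to 0.02). AV against YNG was -0.08 over all rats, but -0.26 within series a (8135 to 6764, p = 0.0131) and 0.14 within series b (7071 to 7715, p = 0.272). The difference between the series was 0.40 (interaction p = 0.0119, adjusted p = 0.111).

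Map1lc3b, which encodes the LC3B protein that is joined to lipid on the autophagosome, had nearly the same mean in each group and the widest spread in AA. The mean normalized read count of YNG rats was 1893 ± 305 (SD, n = 10), that of AV rats 1899 ± 342 (n = 12), that of AA rats 1906 ± 537 (n = 11) and that of ADQ rats 1880 ± 192 (n = 11). Within AA the 5 rats of series a were at 1067 to 1877 and the 6 rats of series b at 1899 to 2680, with no overlap. Against the YNG rats of the same series, AA was lower in series a (-0.53, p = 0.00131) and higher in series b (0.46, p = 0.00202), and the difference between the series was 0.98 (interaction p = 1.28e-05, adjusted p = 0.00588). The pooled difference of -0.03 (p = 0.799) therefore joined opposite values, and it does not hold within either series. YNG itself differed in mean between series a (2045) and series b (1666). The difference between the series was also positive for AV (0.40, p = 0.0444) and ADQ (0.48, p = 0.0203) against YNG, which share these YNG rats, and for AA against AV (0.58, p = 0.00356) and against ADQ (0.50, p = 0.0121), none of which passed after adjustment. Series and rat number cannot be told apart from any handling that went with them.

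Counted together, 2 of 8 members were called in AV against YNG, Lamp2 and Ctss, both higher, beside 21.3% of all genes tested (10.6% higher and 10.7% lower). The median log2 difference was 0.15 for the members and -0.00 for all genes. Without Tfeb, 1 of 7 was called in AA against YNG (Becn1, lower) beside 26.6% of all genes, of which 12.6% were higher and 14.1% lower. In ADQ against YNG, 0 of 7 were called beside 28.1% (13.5% higher and 14.6% lower). After adjustment no member passed in these 2 contrasts, beside 3.85% and 7.08% of all genes. Lamp2, lower, was the 1 of 7 called in AA against AV, where 4.51% of all genes were called, and in ADQ against AV, where 9.32% were. None of these counts stands out from the share over all genes. The contrasts with YNG share the YNG rats and those with AV share the AV rats, so they are not independent.

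The 2 treatments were compared on the 7 members other than Tfeb, and 0 of 7 were called beside 4.53% of all genes (2.13% higher and 2.4% lower). The log2 differences of AA from ADQ were between -0.10 (Becn1) and 0.06 (Sqstm1). A missed threshold does not show that the drugs act alike. The intervals were -0.14 to 0.17 for Lamp1, -0.25 to 0.18 for Lamp2, -0.23 to 0.16 for Ctsb and -0.36 to 0.35 for Ctss. They were -0.10 to 0.22 for Sqstm1, -0.28 to 0.21 for Map1lc3b and -0.29 to 0.09 for Becn1. No adjusted p was below 0.981 in this contrast for these genes.

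**Figure D2:**
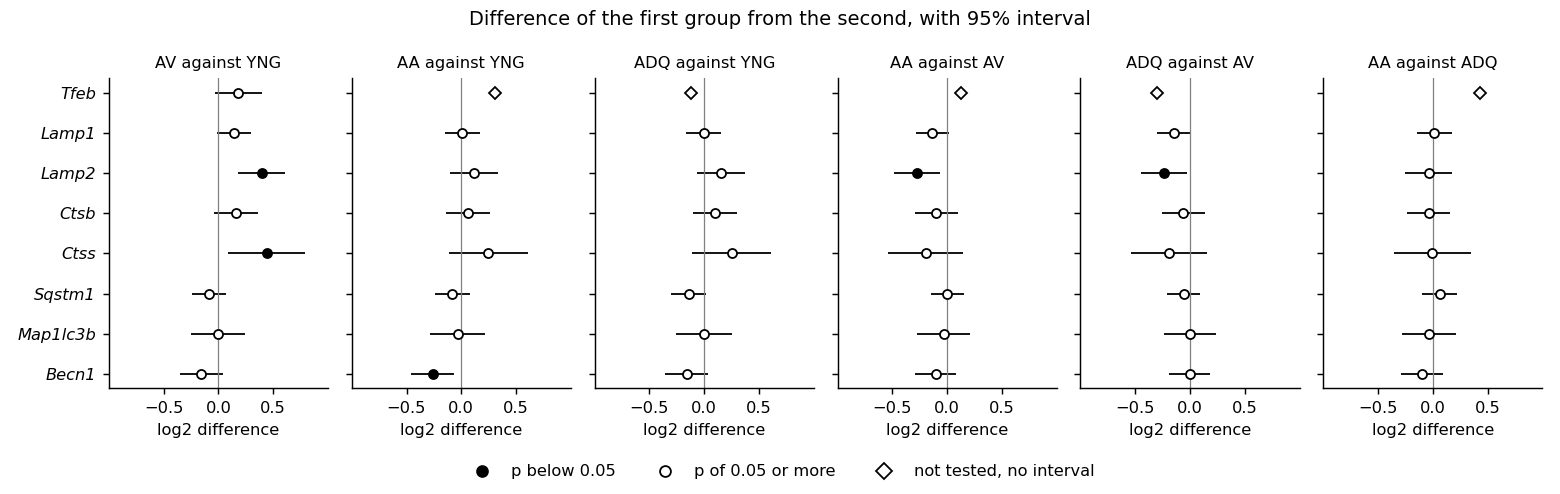
Log2 difference of the first group from the second (x axis) for each of the 8 genes in the 6 contrasts, with the 95% interval of limma as a line. Filled circles mark p below 0.05 (Lamp2 and Ctss in AV against YNG, Becn1 in AA against YNG, Lamp2 in AA and in ADQ against AV), and diamonds with no line mark the Tfeb values that were not tested.

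The strongest rat-to-rat relations between members joined the lysosomal genes. Over all 44 rats, log2 values of Ctsb and Ctss had Pearson's r 0.84 and Spearman's rho 0.74, Lamp1 and Ctss r 0.82 and rho 0.61, and Lamp1 and Ctsb r 0.80 and rho 0.68 (permutation p = 1e-05 for each value, the smallest that 100000 resamples can give, adjusted p = 7e-05). Without the 2 rats farthest from the median these were 0.70, 0.71 and 0.66. Lamp2 and Ctss had r 0.77 and rho 0.54 (permutation p = 1e-05 and 0.00013, adjusted 7e-05 and 0.00073), and r was 0.55 without the 2 farthest rats, 0.82 within series a and 0.46 within series b. Across the 2 compartments, Ctsb and Map1lc3b had r 0.52 and rho 0.62 (permutation p = 0.00053 and 1e-05, adjusted 0.0021 and 7e-05, and r 0.60 without the 2 farthest), and the autophagy genes Sqstm1 and Becn1 had r 0.49 and rho 0.52 (permutation p = 0.00072 and 0.00043, adjusted 0.0025 and 0.002, and r 0.47 without the 2 farthest). Of 28 pairs, 8 had an adjusted p below 0.05 for r. For Lamp2 and Ctsb, r was 0.59 but fell short in rank (rho 0.27, permutation p = 0.08) and was 0.18 without rats 3989 and 3890. Series b, which holds neither of these rats, had r 0.65. The 7 pairs with Tfeb had r between -0.19 and 0.32 and are given with no p.

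**Figure D3:**
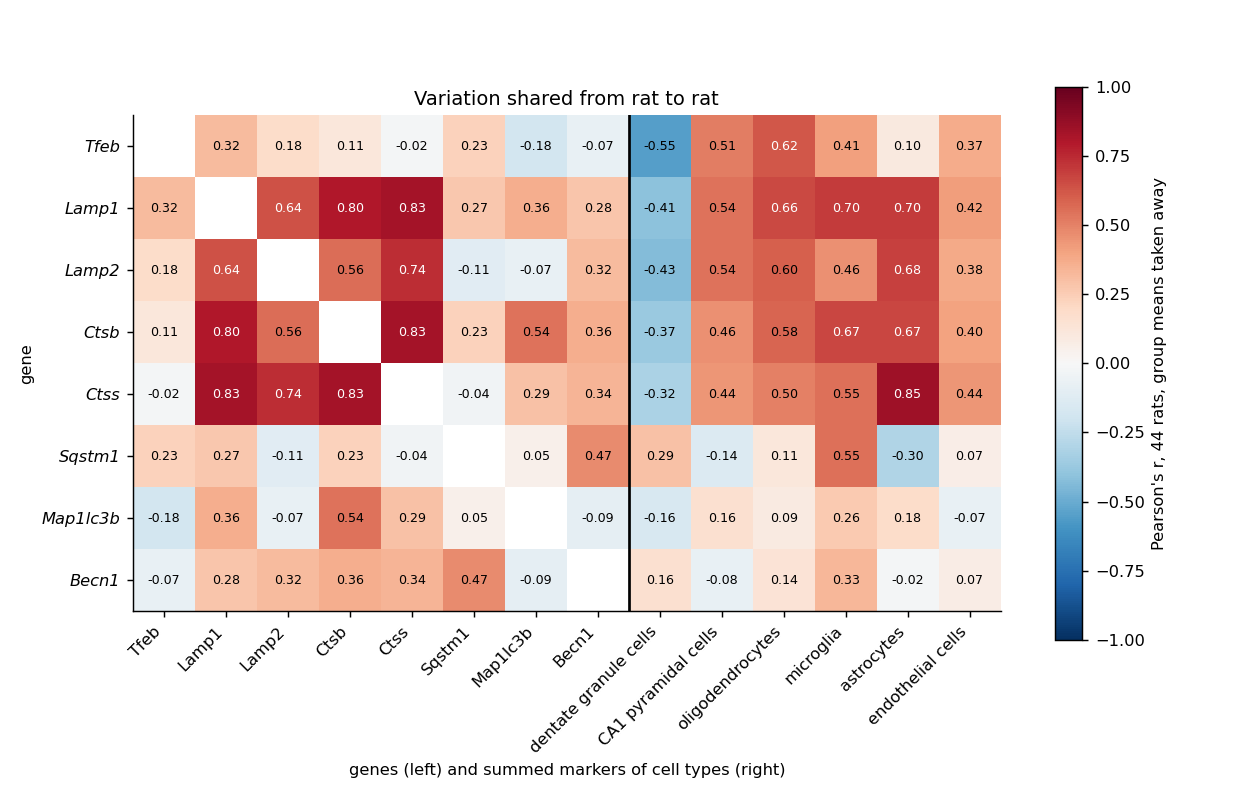
Pearson's r over the 44 rats, group means taken away, between the 8 genes (left of the line) and between each gene and the summed markers of 6 cell types (right of the line), on a color scale from -1 to 1. Lamp1, Lamp2, Ctsb and Ctss form a block with r from 0.56 to 0.83, while Tfeb has 0.62 with oligodendrocyte and -0.55 with granule cell markers.

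The members were also set against cell type markers. With group means taken away, Tfeb varied with the summed oligodendrocyte markers (r 0.62, rho 0.64, permutation p = 1e-05 for both, adjusted 6.9e-05 and 0.00012), with r 0.40 within series a, 0.79 within series b and 0.68 without the 2 farthest rats, 3989 and 4571. Against granule cell markers it had r -0.55 and rho -0.40 (permutation p = 0.0002 and 0.0079, adjusted 0.00069 and 0.021), and r was -0.33 without rats 4107 and 3996, -0.18 within series a and -0.73 within series b. With CA1 markers it had r 0.51 and rho 0.49 (permutation p = 0.00048 and 0.00094, adjusted 0.0014 and 0.0041), and r was 0.37 without rats 4069 and 4107, 0.35 within series a and 0.63 within series b. With astrocyte markers, r was 0.10 (rho 0.15, permutation p = 0.53 and 0.35, adjusted 0.6 and 0.44). Ctss had its highest r with astrocyte markers (r 0.85, rho 0.70, permutation p = 1e-05 for both, adjusted 6.9e-05 and 0.00012, and r 0.75 without the 2 farthest rats), above the 0.55 it had with microglial markers, although this difference was not tested. Lamp1 had r 0.70 and rho 0.68 with microglial markers (permutation p = 1e-05 for both, adjusted 6.9e-05 and 0.00012, and 0.64 without the 2 farthest), and its r was 0.70 with astrocyte and 0.66 with oligodendrocyte markers. Differences between the members in these relations were not tested. Map1lc3b and Becn1 had r between -0.16 and 0.33 with all 6 lists. In all, 48 such relations were computed, and they were chosen after the data were seen.

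Markers of other cell types moved with the groups as well. In AV against YNG, 5 of 6 oligodendrocyte, 4 of 10 microglial, 3 of 7 astrocyte and 4 of 4 endothelial markers tested were higher and passed the test. Of 5 granule cell markers, 1 was lower. Of all genes, 10.6% were higher and 10.7% lower in this contrast. Summed oligodendrocyte markers of YNG rats ran from 42600 to 119500, of AV rats from 54750 to 174700, of AA rats from 53670 to 150600 and of ADQ rats from 60120 to 78330. Summed microglial markers of YNG rats ran from 4478 to 8225, of AV rats from 5512 to 11350, of AA rats from 5052 to 8606 and of ADQ rats from 4760 to 6662. In ADQ against AV, 8 of 10 microglial and 4 of 6 oligodendrocyte markers were lower and passed the test, beside 5.9% of all genes. In AA against AV these were 3 of 10 and 0 of 6, beside 3.1%. Every marker of both lists was detected in all groups. All 4 endothelial markers tested were lower in ADQ than in AV and passed the test. The T and NK cell markers Cd8a, Nkg7 and Prf1 had AV medians of 1.0, 0.50 and 4.0. Their highest AV rats were at 116.8, 214.3 and 460.7, against at most 2.4, 3.1 and 7.9 in any rat of the other groups. They reached the filter on the mean only through such AV rats, so they are described with no test. Between AA and ADQ, 1 of 10 microglial markers passed the test and 0 of 6 oligodendrocyte and 0 of 4 CA1 markers did, beside 4.53% of all genes. The log2 differences were positive for 10 of 10 microglial markers (median 0.13), 6 of 6 oligodendrocyte markers (median 0.20) and 3 of 4 CA1 markers (median 0.47), and for 0 of 5 granule cell markers (median -0.14). Values of Tfeb, Lamp2 and Ctss with granule cell and glial markers in the fit stand beside their results, and beyond that the part of tissue makeup in the differences was not tested.

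**Figure D4:**
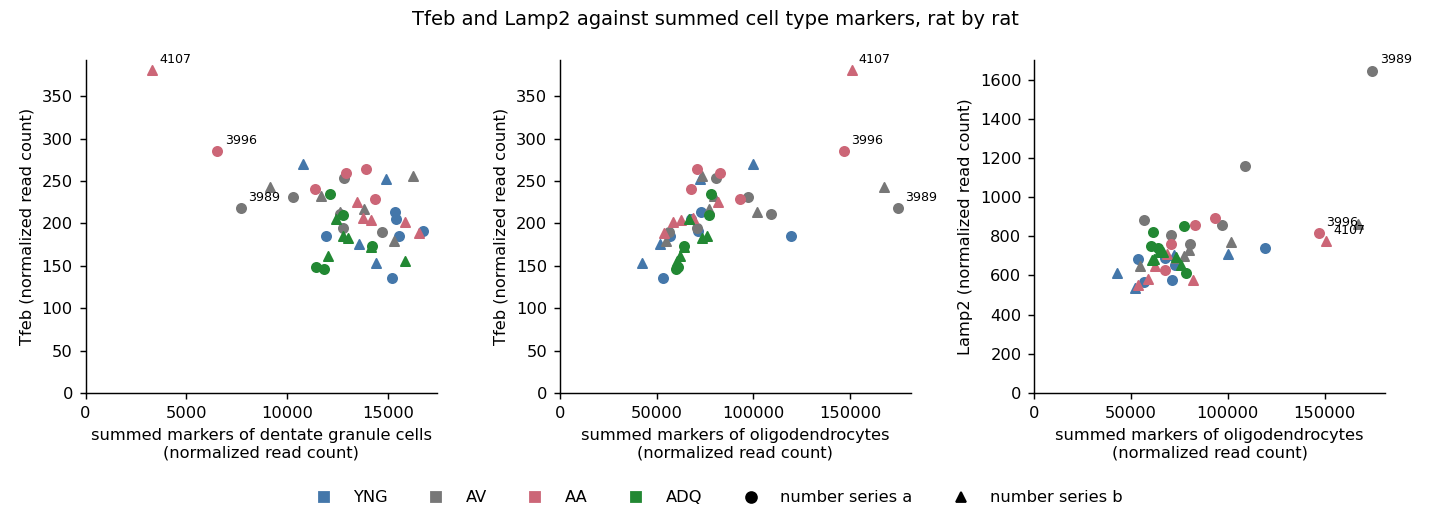
Tfeb against summed granule cell markers (left) and against summed oligodendrocyte markers (middle), and Lamp2 against summed oligodendrocyte markers (right), all in normalized read counts, 1 point per rat, colored by group and shaped by number series. Rat 4107 is lowest in granule cell markers (3308) and highest in Tfeb (381), and rat 3989 is highest in Lamp2 (1647).

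The genes whose rat-to-rat pattern was most like that of Tfeb, group means taken away, among 13703 genes with a mean of at least 20 were Sox10 (r 0.79), a transcription factor of the oligodendrocyte lineage, Heyl (r 0.79), a Notch target, the cadherin Cdh22 (r 0.78), Lgi4 (r 0.78), a secreted protein of glia, and Lasp1 (r 0.77), an actin-binding protein. Over the same 44 rats Sox10 had r 0.77 within series a and 0.84 within series b. The mean of Sox10 was 865 over YNG, 1108 over AV, 1074 over AA and 858 over ADQ rats. The means of Heyl, Lgi4 and Lasp1 were highest in YNG (424, 2389 and 2658), unlike that of Tfeb, and lowest in ADQ (262.5, 2012 and 2259). That of Cdh22 was highest in AA (504) and lowest in ADQ (396). Most like Ctss were Cnn3 (r 0.85), an actin-binding calponin, Npc2 (r 0.84), the soluble cholesterol carrier of lysosomes, and Pttg1ip (r 0.83). These are the highest of many correlations and carry no p.

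Around the 8 members, 165 further genes of lysosomes and autophagy were listed, of which 155 were tested. In AV against YNG, 10 were higher and 15 lower at the unadjusted threshold, 25 of 155 beside 21.3% of all genes, with a median of -0.02. By role, 5 of 40 lysosomal hydrolases were higher and 1 lower, and 3 of 19 genes of the lysosomal membrane and sorting were higher and 0 lower. The proton pump and the autophagy lists went the other way, with 0 higher and 3 lower of 18 V-ATPase genes, 0 and 3 of 13 conjugation genes, and 0 and 4 of 21 cargo receptor and fusion genes. Autophagy initiation had 1 higher and 1 lower of 18, and the TFEB family with its regulators 1 higher and 3 lower of 26. Read against the 10.6% and 10.7% of all genes called higher and lower, these counts lie within a few genes of the background, and no difference between the lists was tested.

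**Figure D5:**
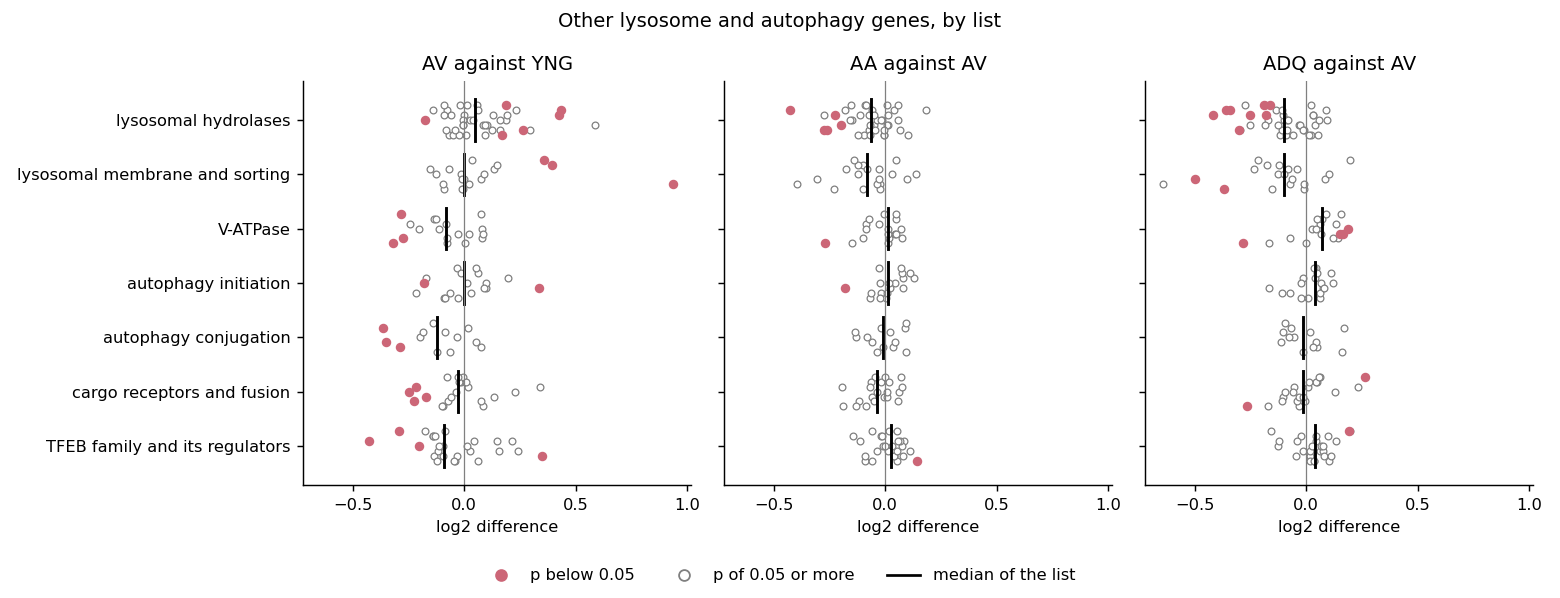
Log2 difference of each further gene (points; filled at p below 0.05) and the median of its list (bar) in AV against YNG, AA against AV and ADQ against AV. Hydrolases have a median of 0.05 in AV against YNG, -0.06 in AA against AV and -0.10 in ADQ against AV, and the conjugation genes one of -0.12 in AV against YNG.

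Among the genes that rose in AV, Npc1, the membrane protein that exports cholesterol from lysosomes, went from 773 ± 116 in YNG to 1022 ± 191 in AV (SD, n = 10 and 12), a log2 difference of 0.39 (SE 0.10, p = 0.000332, adjusted p = 0.0264). Wipi1, which binds the lipid of the growing autophagosome, went from 375 ± 36.5 to 479 ± 94.2 (0.34, SE 0.09, p = 0.000351, adjusted p = 0.0275). These were the 2 of 155 that passed after adjustment. The hydrolases Idua (0.43), Ctsz (0.42) and Lgmn (0.19) were called at the unadjusted threshold only. Lower in AV were Lamtor2 (-0.43), a part of the Ragulator scaffold that brings mTORC1 to the lysosome, and the LC3 relatives Map1lc3a (-0.37) and Gabarap (-0.35). Lower as well were Atg7 (-0.29), the enzyme that activates LC3 for conjugation, Ppp3cb (-0.29), a catalytic subunit of calcineurin, the phosphatase that acts on TFEB, the pump subunit Atp6v0d1 (-0.28) and the tethering factor Vps33a (-0.21). None of these passed after adjustment. Within series b, Lamtor2 (0.19), Map1lc3a (0.09), Atp6v0d1 (0.06) and Atg7 (0.00) had the opposite sign. With granule cell and oligodendrocyte markers in the fit, 3 of 155 were higher and 1 lower. Series a alone had 18 and 38 and series b alone 9 and 0. Of all 15598 genes, 935 were higher and 798 lower with the markers. Series a alone had 2365 and 2847 of all genes, and series b alone 588 and 396. Cd68, a lysosomal glycoprotein of microglia and macrophages, lay under the mean of 20 set for naming a gene and was chosen after its values were seen. YNG rats had 12.7 ± 4.86, AV rats 28.7 ± 14.95, AA rats 19.7 ± 9.10 and ADQ rats 16.2 ± 7.10, and AV differed from YNG by 0.94 (SE 0.34, p = 0.00741, adjusted p = 0.109).

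The treated groups also differed from YNG. In AA, 13 of 155 were higher and 26 lower beside 26.6% of all genes, and in ADQ 18 and 29 beside 28.1%. The largest rises with a mean of at least 20 were in Idua, the enzyme that begins the breakdown of heparan and dermatan sulfate (397 ± 127 in YNG, 599 ± 136 in AA and 564 ± 141 in ADQ, log2 differences 0.62 and 0.52), Stx17, a fusion factor of the autophagosome (0.42 and 0.57), and Fnip2 (0.39 and 0.37). The largest falls were in Lamtor2 (-0.54 and -0.55), the pump subunit Atp6v1f (-0.47 and -0.49) and Gabarap (-0.41 and -0.46). Lamtor2 passed after adjustment in both contrasts (adjusted p = 0.0494 in AA and 0.034 in ADQ), Idua in AA (adjusted p = 0.0491) and Stx17 (adjusted p = 0.0427) and Gabarap (adjusted p = 0.046) in ADQ. Within series b, Stx17 in AA (-0.12), Fnip2 in AA (-0.05) and in ADQ (-0.04) and Atp6v1f in AA (0.00) took the other sign.

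Against AV, the called hydrolases were lower in both treated groups. In ADQ, 0 of 40 were higher and 8 lower beside 3.42% and 5.9% of all genes, with a list median of -0.10, and in AA 0 and 5 beside 1.4% and 3.1%, with a median of -0.06. Ctsz (-0.42) was among the 3 lowest genes in ADQ, with 2 genes of the lysosomal membrane, Laptm5 (-0.50) and the tetraspanin Cd63 (-0.37). In AA these were the cathepsins Ctsc (-0.43) and Ctsh (-0.27) and the pump subunit Atp6v0e1 (-0.27). Higher in ADQ were the tethering factor Vps41 (0.27), Ppp3cb (0.19) and the pump subunit Atp6v1b2 (0.19), and in AA Flcn (0.14), which encodes folliculin, a regulator of the Rag proteins that recruit TFEB to the lysosome. No gene of the whole table passed after adjustment in limma in either contrast, while 703 and 1454 genes in AA and ADQ were under the unadjusted threshold. Without rat 3989, Cd63 in ADQ and Ctsh and Atp6v0e1 in AA were no longer called. Leaving out 1 rat at a time, the call in AA against AV was lost in 28 of 44 fits for Atp6v0e1 and in 13 of 44 for Ctsh. The call was lost in 11 of 44 such fits for Flcn in AA against AV and in 13 of 44 for Ppp3cb in ADQ against AV. Beside these falls, all 10 microglial markers were lower in ADQ than in AV, and 8 of the 10 were called. With granule cell and microglial markers in the fit, 8 of 155 genes were higher and 1 lower in ADQ against AV, in place of 5 and 12. Without the 3 rats low in granule cell markers they were 5 and 5. Over all genes, 354 were higher and 534 lower with these markers and 488 and 708 without the 3 rats, in place of 533 and 921. The part of microglial makeup in these falls was not tested. Between AA and ADQ, Cln3 (0.26) and Gm2a (0.17) were higher and Ppp3ca (-0.24), Atp6v1c1 (-0.22) and Vps41 (-0.20) lower in AA, 7 of 155 in all beside 4.53% of all genes, and none passed after adjustment. Leaving out 1 rat at a time, the call was lost in 8 of 44 fits for Gm2a and in 2 each for Ppp3ca and Vps41.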

How the data were processed

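Per the labels and the methods of the study, poly(A)-selected RNA of the DG was sequenced on an Ion instrument, aligned to rn6 with STAR 2.5.3a in Partek and scaled by the median ratio, and the authors tested genes with DESeq2. The annotation is not given in the sources used here. The deposited table holds signal values, reads estimated for each row and divided by the size factor of the library, in 24694 rows for 18347 gene identifiers. Between 78.4% and 83.2% of low values came to whole reads within 0.05 of a read, so no count model was used. Groups were read from the authors' attributes table by rat name.

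Rows were summed per gene identifier (13985 have 1 row), genes with a mean of at least 5 were kept (15598), and log2(value + 1) of all 4 groups was fitted once with limma 3.58.1 (trend) in R 4.3.3 (package data.table, version 1.17.8). Tests were two-sided. The fit was tested on simulated data. Correlations used 100000 permutations. Tables and figures used Python 3.11.15 with matplotlib 3.10.9, scipy 1.17.1, pandas 2.3.3 and numpy 2.4.6. Positions are GRCr8 and come from RefSeq promoters alone, never from rn6.

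The members and gene lists were chosen with earlier results of these data known. Named genes were the members, in each contrast the 3 highest and 3 lowest called list genes with a mean of at least 20, in each list the gene with the smallest p of AV against YNG, and the 5 genes most like Tfeb and 3 most like Ctss. The alternatives were pseudocounts of 0.5 and 5, other filters, other scaling, 2 groups alone, number series, marker covariates, array weights, the top row of a gene and single rats left out. The fit with oligodendrocyte markers, the fit without the 3 rats low in granule cell markers and the relations to markers were added after the data were seen.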

Additional observations from a re-analysis of the deposited data

Results flagged for a closer look

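In each group and number series the highest and the lowest rat were compared with the nearest other rat by Dixon's test at 95%. Of 72 such groups, which include YNG as a whole since it has 10 rats, 6 had a rat set apart, and chance alone sets apart about 1 in 20. Tfeb was low in rat V5 (YNG, series a, 135.9, the next rat being at 185.1) and high in rat 4107 (AA, series b, 381.0, next 225.9). Rat 4107 was also the rat lowest in granule cell markers. Rat 3989 (AV, series a) was high in Lamp1 (11290, next 7680) and in Ctss (5183, next 2569). Ctsb was high in rat 4571 (AV, series b, 9035, next 7335), and Map1lc3b was low in rat V12 (YNG, series b, 1391, next 1744).

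For Map1lc3b the difference of AA from YNG was not the same in the 2 number series. The log2 difference in series b minus that in series a was 0.98 (limma interaction p = 1.28e-05, adjusted p = 0.00588). Of 43 interactions tested for the members, 7 had p below 0.05, of which 5 were for Map1lc3b, and 1 passed after adjustment.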

How the results depend on the processing

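The log2 difference of Tfeb between AA and ADQ ran from 0.29 with granule cell and microglial markers in the fit to 0.50 within series a. Tfeb was picked for this difference and the alternatives reuse the same values, so its kept sign is a description and no test. The count of related pairs was 6 to 10 beside 8. For the other counts the cause of a change was not tested.

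With an equal total per rat, the median log2 difference of all genes came to 0.10 in AV, 0.15 in AA and 0.14 in ADQ against YNG, and 5 members were called in AV, 4 in AA and 3 in ADQ against YNG, 0 in ADQ against AV, and 3 further genes in AA against AV. With the 2 groups alone, 1 member was called in AV and 3 in ADQ against YNG, with 15 further genes in AV against YNG and 4 in AA against AV. With array weights, the members called were 4, 2 and 4 in AV, AA and ADQ against YNG and 0 in ADQ against AV. The further genes called were 85, 87 and 94 against YNG, 3 in AA against AV and 12 between AA and ADQ. These weights called 7694, 7068 and 8101 of all 15598 genes against YNG, in place of 3326, 4153 and 4386. Over all genes they called 921 in AA and 1939 in ADQ against AV, in place of 703 and 1454. Between AA and ADQ they called 1584 in place of 707. Granule cell and microglial covariates gave 1 member in ADQ against YNG and 0 in ADQ against AV, with 47 further genes in AV against YNG, 5 in AA and 9 in ADQ against AV. Granule cell and oligodendrocyte covariates gave 1 member in AV against YNG and 0 in ADQ against AV, with 4 further genes in AV and 27 in ADQ against YNG and 5 in ADQ against AV. Over all genes, the fit with these covariates called 1733 in AV and 2705 in ADQ against YNG and 865 in ADQ against AV. Without the 3 rats low in granule cell markers, 0 members were called in ADQ against AV. The further genes called without them were 4 in AA and 10 in ADQ against AV, beside 789 and 1196 of all genes. The top row of each gene alone gave 1 member in ADQ against YNG, beside 4137 of all genes. Equal totals called 3474, 5174 and 5223 of all genes in AV, AA and ADQ against YNG. They called 662 in AA and 1361 in ADQ against AV. The 2 groups alone called 2606 in AV and 5005 in ADQ against YNG and 480 in AA against AV. Granule cell and microglial covariates called 5314 in AV and 3336 in ADQ against YNG, and 938 in AA and 888 in ADQ against AV.

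Within series a, 2 members were called in AA and 1 in ADQ against YNG. The further genes called there were 56 in AV against YNG, 5 in AA and 5 in ADQ against AV, and 4 between AA and ADQ. Over all genes, series a had 5212, 4465 and 4274 calls in AV, AA and ADQ against YNG. It had 601 in AA and 885 in ADQ against AV, and 933 between AA and ADQ. Within series b, the members called were 1, 3 and 1 in AV, AA and ADQ against YNG and 0 in ADQ against AV. The further genes called there were 9, 16 and 8 against YNG. Over all genes, series b had 984, 1928 and 1077 calls against YNG and 1519 in ADQ against AV. Among differences called in the pooled or the series b fit, the sign turned within series b for several genes. In AA against YNG these were Map1lc3b (0.456), Stx17 (-0.123), Fnip2 (-0.0491) and Atp6v1f (0.004), and in ADQ against YNG Fnip2 (-0.0425). In AV against YNG they were Lamtor2 (0.194), Map1lc3a (0.0947), Atp6v0d1 (0.0567) and Atg7 (0.0016). Sqstm1 in AV against YNG, called within series a alone (-0.263), also turned within series b (0.137). Differences called in none of these fits turned as well, such as Ctsb in AA against AV (0.006).

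Leaving out 1 rat at a time, 2 to 4 members were called in AV, 1 in AA and 0 to 1 in ADQ against YNG, 1 to 2 in AA and 0 to 2 in ADQ against AV, and 0 between AA and ADQ. The further genes ranged from 17 (without V1) to 40 (without 4567) in AV, 28 to 51 in AA and 34 to 58 in ADQ against YNG, 1 (without 3989) to 10 in AA and 10 (without 3989) to 25 in ADQ against AV, and 4 to 10 between AA and ADQ. No paired analysis was possible because the rat names pair no rats across groups. At 102 to 408 reads per rat, Tfeb carries more counting error than the other members, and the table holds no transcript forms that could be told apart.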
